A study of Homo sapiens with 2 samples.

Results

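The 38 genes described here encode the aminoacyl-tRNA synthetases of the cytosol (19 genes) and of mitochondria (16 genes), together with 3 proteins, AIMP1, AIMP2 and EEF1E1, that hold several cytosolic synthetases in 1 complex. They were chosen by name. The platform annotation gives 20046 genes to the array's probes and held 40 probes for 35 of the 38. CARS1, AIMP2 and EEF1E1 had no annotated probe and were not analysed here. Gene expression was measured on Illumina HT12 whole-genome arrays in cells labelled Jurkat, a human T cell leukaemia line. The cells had been kept for 24 hours with Me6TREN, a branched polyamine ligand of metal ions, or with PBS (phosphate-buffered saline) as control, in the same serum-containing medium. No source used here gives a dose. Each group had 1 array, so the values below carry neither a standard deviation nor a p-value, and no difference has a replicate check. Each array averages a whole culture, so fewer expressing cells and less RNA per cell cannot be told apart.

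Aminoacyl-tRNA synthetases join each amino acid to its transfer RNA, the step that sets which amino acid a codon stands for. The cytosolic and the mitochondrial translation systems use separate enzymes for most amino acids, and all of these enzymes are encoded in the nucleus. GARS1 and KARS1 serve both compartments and are counted as cytosolic here. Many cytosolic synthetase genes are known targets of ATF4, the transcription factor that raises amino acid supply and tRNA charging when the kinases of the integrated stress response are active.

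A probe was called detected where its detection p-value, the rank of its signal among the array's negative controls, was under 0.01. By this rule 13656 of 47322 probes (28.9%) were detected on the Me6TREN array and 15363 (32.5%) on the control array, with lowest detected signals of 350.5 and 333.4. Of 11 T cell markers with a probe, 2 (CD247 and CD28) were detected on both arrays and 5 on 1 array, while CD3E, LCK, CD5 and CD7 were detected on neither. Both arrays detected 8 of 9 B cell markers that had a probe, among them CD79A, CD79B and MS4A1, which goes against the labelled T cell line. Both arrays detected CD68 of 6 myeloid markers and HBB of 3 erythroid markers, and no epithelial or fibroblast marker was detected on both. The log2 ratios of CD68 and HBB were 0.73 and −0.11, and their part in the results below was not tested.

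Both arrays detected all 18 cytosolic synthetases that had a probe. Of the 16 mitochondrial synthetases, 14 were detected on both arrays, PARS2 on the control array alone and WARS2 on neither. AIMP1 was not detected on either array, with signals of 218.0 and 195.4 on the Me6TREN and the control array. The 33 measured enzymes therefore comprised 18 cytosolic and 15 mitochondrial ones. Ratios below are Me6TREN over control after background correction and quantile normalization, and each gene is represented by its brightest detected probe.

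Synthetase signals were mostly lower on the Me6TREN array, in both compartments. As deposited, without normalization, the Me6TREN signal was below the control signal for 31 of the 33 enzymes, with a median ratio of 0.559, against 7406 of all 9410 measured genes and a median ratio of 0.758. After normalization, 13 of the 33 enzymes were at least 1.5-fold lower with Me6TREN and none was 1.5-fold higher. Among all 9410 measured genes, 21.9% were at least 1.5-fold lower and 16.5% at least 1.5-fold higher. At 2-fold, RARS1 and PARS2 were lower and no enzyme was higher, against 9.94% and 6.74% of all measured genes. The median log2 ratio was −0.33 over the 33 enzymes and −0.02 over all measured genes. FARSB and QARS1 were the 2 enzymes with the higher deposited signal on the Me6TREN array.

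**Figure D1:**
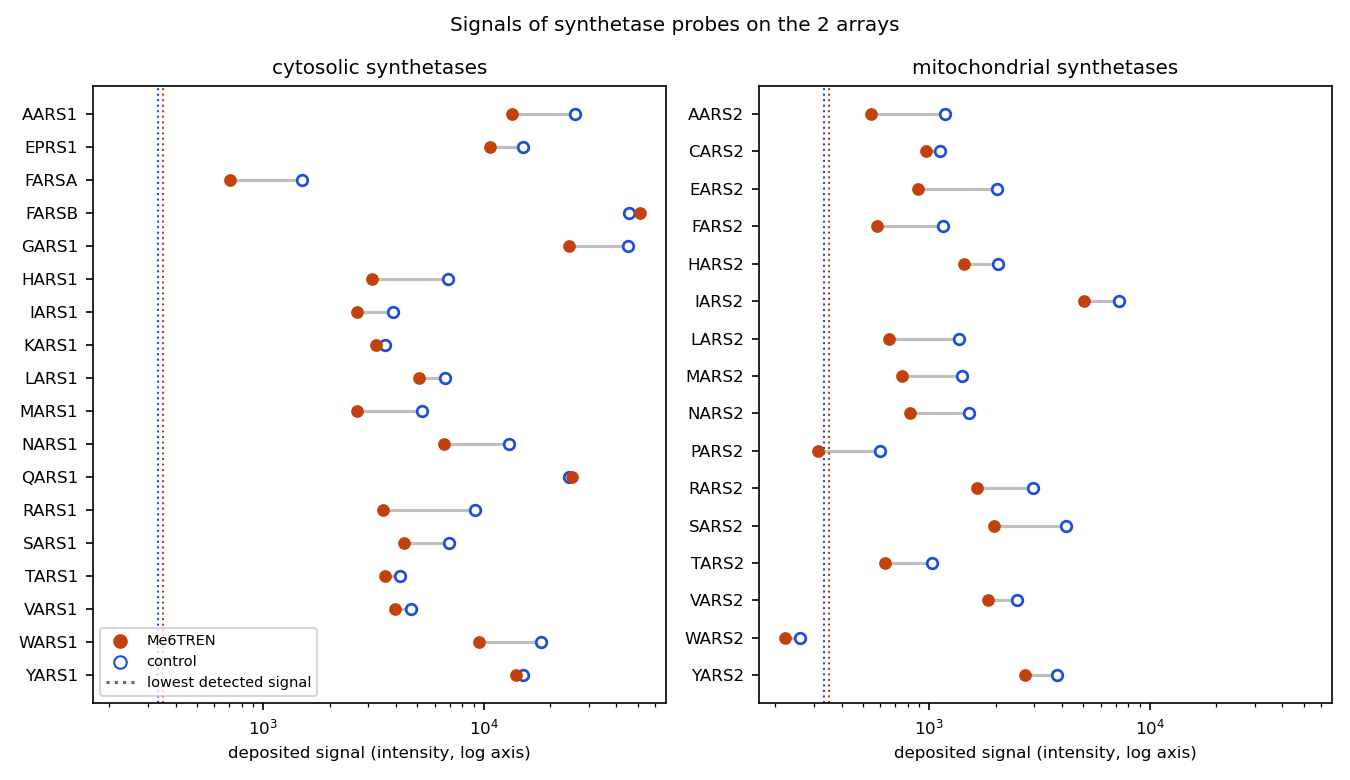
Deposited signals of the synthetase probes on the Me6TREN array (filled) and the control array (open), on a log axis in intensity units, with the lowest detected signal of each array as a dotted line. The Me6TREN point lies left of the control point for 31 of the 33 measured enzymes, FARSB and QARS1 being the exceptions; WARS2 lies below both dotted lines.

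Of the 18 cytosolic enzymes, 7 were at least 1.5-fold lower with Me6TREN (38.9%), and the median log2 ratio was −0.29. RARS1, which charges arginine tRNA and sits in the multisynthetase complex, had deposited signals of 3499 on the Me6TREN array and 9145 on the control array and was 2.04-fold lower (log2 ratio −1.03). GARS1, the glycine enzyme of both compartments, had signals of 24472 and 44976 on the Me6TREN and the control array and was 1.99-fold lower. AARS1, which charges alanine tRNA, had 13389 on the Me6TREN array and 25981 on the control array and was 1.86-fold lower. RARS1 alone of the 18 passed 2-fold. It was also the 1 cytosolic enzyme that stayed at least 1.5-fold lower under all 10 alternative settings of the processing, with log2 ratios from −1.31 to −0.73.

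The other cytosolic enzymes past 1.5-fold were WARS1, HARS1, FARSA and NARS1. WARS1, which charges tryptophan tRNA and is also known as an interferon-induced gene, was measured by 2 detected probes with log2 ratios of −0.74 and −0.61, and its brighter probe had signals of 9527 with Me6TREN and 18154 in the control. WARS1 was the 1 synthetase with more than 1 probe detected on both arrays, and its probes differed by less than is usual on these arrays. Over the 1912 genes with at least 2 probes detected on both arrays, the probes of a gene differed by a median of 0.36 in log2 ratio, and by 1.5-fold or more in 31.3% of the genes. HARS1, the histidine enzyme, had signals of 3125 with Me6TREN and 6925 in the control (1.66-fold lower). NARS1, the asparagine enzyme, had signals of 6625 and 12982 on the Me6TREN and the control array (1.62-fold lower). Like GARS1 and AARS1, these 4 enzymes had a lower deposited signal on the Me6TREN array and a log2 ratio below 0 under all 10 alternatives. With median centring, however, the log2 ratios of GARS1 (−0.17), AARS1 (−0.25), WARS1 (−0.23), NARS1 (−0.28) and HARS1 (−0.50) were short of 1.5-fold.

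FARSA and FARSB encode the catalytic and the other subunit of the same phenylalanyl-tRNA synthetase, and their ratios differed. FARSA had signals of 706.2 on the Me6TREN array and 1490 on the control array and was 1.64-fold lower. FARSB had signals of 51200 with Me6TREN and 45701 in the control, with a log2 ratio of −0.01. A second FARSB probe was detected on neither array, with signals of 225.1 with Me6TREN and 274.0 in the control, so the contrast rests on 1 FARSB probe. The signals of the detected FARSB probe lay in the upper part of the scale, whose highest signals were 74594 on the Me6TREN array and 73763 on the control array. Where each array was centred on its median instead of quantile-normalized, the log2 ratio of FARSB was 0.88, and that of FARSA −0.73.

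MARS1, SARS1 and EPRS1 had log2 ratios of −0.52, −0.30 and −0.29, short of 1.5-fold. MARS1, the methionine enzyme, lay just outside that threshold with signals of 2648 with Me6TREN and 5229 in the control. The log2 ratios of the remaining cytosolic enzymes lay close to 0 or above it. QARS1 (glutamine), IARS1 (isoleucine), LARS1 (leucine) and YARS1 (tyrosine) had log2 ratios of 0.00, 0.00, 0.01 and 0.06. VARS1 (valine), TARS1 (threonine) and KARS1 (lysine, in both compartments) had log2 ratios of 0.22, 0.27 and 0.41. The KARS1 signals were 3247 with Me6TREN and 3563 in the control. The enzyme with the highest cytosolic ratio was thus, unlike FARSB and QARS1, not brighter on the Me6TREN array before normalization. The signs of EPRS1, FARSB, IARS1, KARS1, LARS1, TARS1 and VARS1 each changed under at least 1 alternative setting, so no direction is given for them.

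**Figure D2:**
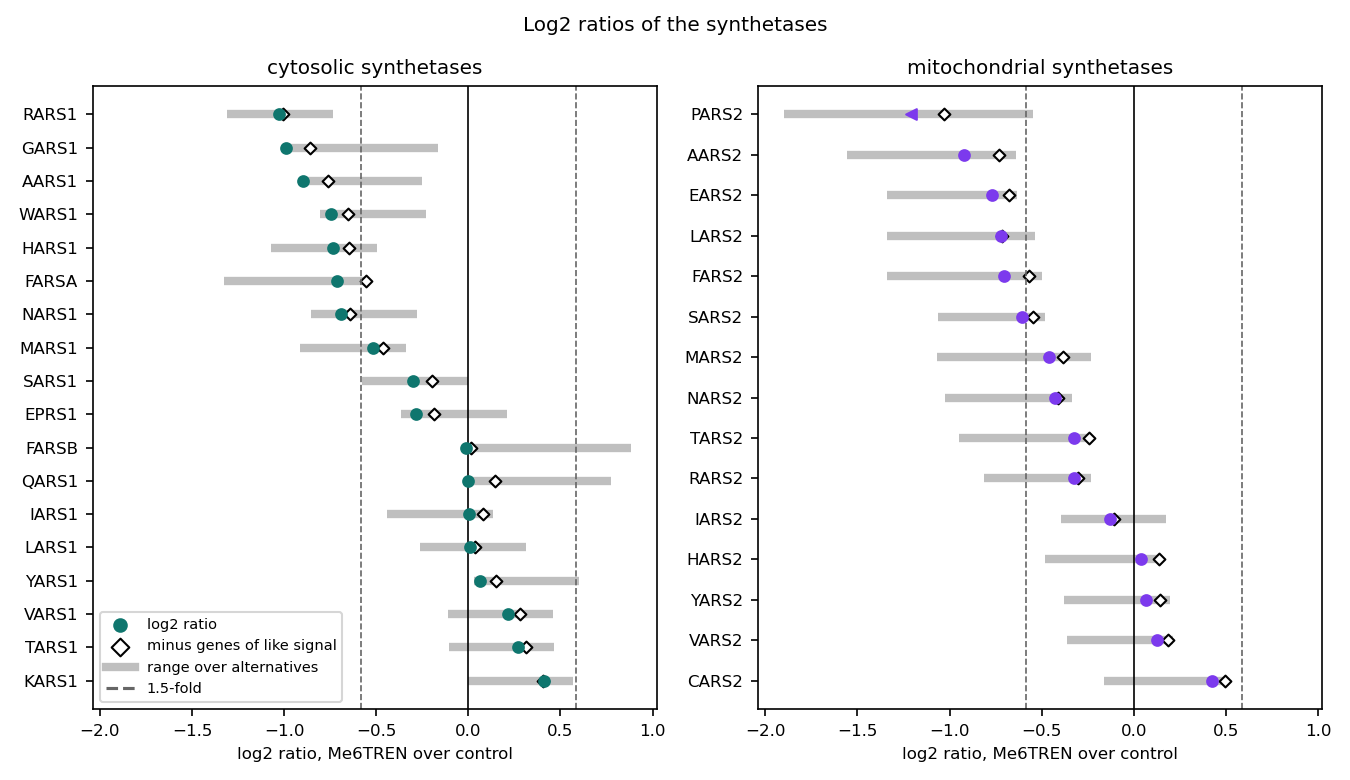
Log2 ratios, Me6TREN over control, of the 18 cytosolic and 15 mitochondrial synthetases (filled points; the triangle marks the bound for PARS2), the same ratios minus the median of genes of like signal (diamonds) and the range over the alternative settings (grey bars). Dashed lines mark 1.5-fold; RARS1, AARS2 and EARS2 are the enzymes whose grey bar lies wholly left of the lower line.

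The promoters of several cytosolic synthetase genes hold the letters of the C/EBP-ATF response element, the DNA element to which ATF4 binds. Promoter windows of RefSeq on build GRCh38.p14, from 250 bases before to 50 bases after each transcription start, were found for 33 of the 38 genes. The letters TGATGNAA, searched on both strands, occurred in at least 1 window of 7 of the 16 cytosolic genes with a window (AARS1, CARS1, GARS1, IARS1, MARS1, NARS1 and TARS1), in 1 of 14 mitochondrial genes (YARS2) and in none of the 3 scaffold genes. Over all 35116 windows 3.62% held them, and over all 27305 genes with a window 4.46% did. A match is a description of the letters and not a measured binding site. The windows of AARS1 (chr16:70289457-70289756, minus strand), GARS1 (chr7:30594628-30594927, plus strand), NARS1 (chr18:57621787-57622086, minus strand), MARS1 (chr12:57487818-57488117, plus strand), IARS1 (chr9:92293648-92293947, minus strand) and TARS1 (chr5:33440715-33441014, plus strand) are shown because they hold the match and were measured, with the match in capitals. That of RARS1 (chr5:168486221-168486520, plus strand), the cytosolic enzyme with the lowest ratio, is shown beside them and holds none. Each runs 5′ to 3′ along its gene.
AARS1: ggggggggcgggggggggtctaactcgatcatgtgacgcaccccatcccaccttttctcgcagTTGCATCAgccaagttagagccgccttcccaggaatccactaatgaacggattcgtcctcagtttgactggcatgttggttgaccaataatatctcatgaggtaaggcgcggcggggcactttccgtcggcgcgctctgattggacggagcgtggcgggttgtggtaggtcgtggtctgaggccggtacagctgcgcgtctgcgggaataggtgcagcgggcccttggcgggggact
GARS1: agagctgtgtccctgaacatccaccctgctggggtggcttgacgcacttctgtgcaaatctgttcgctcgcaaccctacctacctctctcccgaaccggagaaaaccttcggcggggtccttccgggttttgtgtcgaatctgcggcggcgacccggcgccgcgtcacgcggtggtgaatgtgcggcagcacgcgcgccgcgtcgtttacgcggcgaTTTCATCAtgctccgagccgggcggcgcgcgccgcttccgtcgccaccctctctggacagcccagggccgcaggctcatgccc
NARS1: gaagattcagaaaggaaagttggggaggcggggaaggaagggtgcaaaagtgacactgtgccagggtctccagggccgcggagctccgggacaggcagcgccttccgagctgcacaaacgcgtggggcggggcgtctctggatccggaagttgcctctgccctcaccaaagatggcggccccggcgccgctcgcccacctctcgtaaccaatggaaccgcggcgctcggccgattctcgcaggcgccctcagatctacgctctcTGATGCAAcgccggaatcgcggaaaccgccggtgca
MARS1: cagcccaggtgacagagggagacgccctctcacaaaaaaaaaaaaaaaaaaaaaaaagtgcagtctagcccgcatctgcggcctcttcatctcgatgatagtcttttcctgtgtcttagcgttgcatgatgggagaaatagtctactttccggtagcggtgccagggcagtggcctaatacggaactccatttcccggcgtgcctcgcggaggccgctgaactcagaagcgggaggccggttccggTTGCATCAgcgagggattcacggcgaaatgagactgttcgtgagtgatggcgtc
IARS1: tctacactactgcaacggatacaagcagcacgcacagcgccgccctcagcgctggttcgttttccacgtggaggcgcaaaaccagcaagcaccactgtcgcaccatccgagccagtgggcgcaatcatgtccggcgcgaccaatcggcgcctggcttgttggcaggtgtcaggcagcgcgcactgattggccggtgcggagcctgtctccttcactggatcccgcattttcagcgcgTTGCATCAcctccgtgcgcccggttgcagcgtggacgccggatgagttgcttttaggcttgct
TARS1: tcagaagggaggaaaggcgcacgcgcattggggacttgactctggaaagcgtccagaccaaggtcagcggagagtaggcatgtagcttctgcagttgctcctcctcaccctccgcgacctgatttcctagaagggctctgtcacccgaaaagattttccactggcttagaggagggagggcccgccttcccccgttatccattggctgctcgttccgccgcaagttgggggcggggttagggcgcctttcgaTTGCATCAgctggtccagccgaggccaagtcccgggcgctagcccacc
RARS1: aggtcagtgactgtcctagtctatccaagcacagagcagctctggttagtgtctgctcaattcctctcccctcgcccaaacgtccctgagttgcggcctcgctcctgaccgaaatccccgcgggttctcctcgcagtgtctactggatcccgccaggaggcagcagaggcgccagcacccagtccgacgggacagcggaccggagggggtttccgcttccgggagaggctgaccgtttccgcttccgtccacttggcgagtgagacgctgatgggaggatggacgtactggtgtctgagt

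The match began close to the transcription start in most of these windows, at 33 bases before it in GARS1, 13 in IARS1 and 4 in MARS1, and at 2 bases after it in TARS1 and 14 in NARS1. In AARS1 it lay farther out, 187 bases before the start. The 6 measured cytosolic genes with a match had log2 ratios from −0.99 (GARS1) to 0.27 (TARS1), with a median of −0.60, and 3 of them were at least 1.5-fold lower. The 9 measured cytosolic genes whose windows held no match had log2 ratios from −1.03 (RARS1) to 0.41 (KARS1), with a median of −0.30, and 4 of them were at least 1.5-fold lower. The ranges of these sets overlapped almost wholly. LARS1, VARS1 and YARS1 had no window in the table used.

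The enzymes of the multisynthetase complex and the other cytosolic enzymes had different counts past 1.5-fold. The 7 measured complex enzymes were EPRS1, IARS1, KARS1, LARS1, MARS1, QARS1 and RARS1. Of these only RARS1 (14.3%) was at least 1.5-fold lower, against 21.9% of all measured genes, and the median log2 ratio was 0.00. Of the 11 measured cytosolic enzymes outside the complex, 6 (54.5%) were at least 1.5-fold lower, with a median log2 ratio of −0.69. Among the alternatives the complex enzymes counted 1 or 2 lower and the others 1 to 6. The count of 1 for the others came with median centring, where 1 enzyme of each kind was lower, against 18.1% of all measured genes. The 2 structural classes of synthetases, which differ in the fold of their catalytic domain, also had different counts. Of 16 measured class II enzymes 9 (56.25%) were at least 1.5-fold lower, and of 17 class I enzymes 4 (23.5%). The class I share lay near the 21.9% of all measured genes. The class II and class I median log2 ratios were −0.65 and −0.13. With median centring the class II and class I counts were 4 and 3, against 18.1% of all measured genes. Without background correction they were 5 and 3, against 14.4%. The class II median lay below the class I median in both compartments, at −0.69 against 0.00 in the cytosol and −0.61 against −0.23 in mitochondria. EPRS1, which charges both glutamate and proline tRNA, was counted as class I alone, whereas the mitochondrial proline enzyme PARS2 is of class II. All complex enzymes but KARS1 (log2 ratio 0.41) are of class I. The measured cytosolic class I enzymes outside the complex were VARS1 (0.22), WARS1 (−0.74) and YARS1 (0.06). In the cytosol the split by complex and the split by class thus overlap in large part, and they were not separated here. The genes of these groups are not replicates of a condition, and the differences were not tested.

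Of the 15 measured mitochondrial enzymes, 6 were at least 1.5-fold lower with Me6TREN (40.0%) and none was 1.5-fold higher, and the median log2 ratio was −0.43. PARS2, which charges mitochondrial proline tRNA, had a signal of 311 on the Me6TREN array, where it was not detected, and of 596 on the control array. With background correction the bound for PARS2 was at least 2.32-fold lower (log2 ratio −1.21), but without it the log2 ratio was −0.55, short of 1.5-fold. AARS2, the mitochondrial alanine enzyme, had signals of 543.0 with Me6TREN and 1176 in the control and was 1.89-fold lower. EARS2, the mitochondrial glutamate enzyme, had signals of 891.4 with Me6TREN and 2019 in the control and was 1.71-fold lower. AARS2 and EARS2 stayed at least 1.5-fold lower under all 10 alternatives, with log2 ratios of −1.56 to −0.64 and −1.34 to −0.64. The EARS2 probe is annotated to a non-coding RefSeq record of that gene, so it may not report the coding transcript.

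LARS2, FARS2 and SARS2 completed the mitochondrial enzymes past 1.5-fold. LARS2 (leucine) had signals of 655.3 with Me6TREN and 1359 in the control and was 1.65-fold lower. FARS2 (phenylalanine) had signals of 580.6 with Me6TREN and 1151 in the control and was 1.63-fold lower. SARS2 (serine) lay just inside the threshold, 1.53-fold lower, with signals of 1956 with Me6TREN and 4173 in the control. These probes lay within a few multiples of the lowest detected signals on the Me6TREN array, where the size of a ratio depends on the background correction. Without background correction 2 of the 15 mitochondrial enzymes were at least 1.5-fold lower, against 14.4% of all measured genes.

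The other mitochondrial enzymes did not reach 1.5-fold. MARS2 (methionine), NARS2 (asparagine), TARS2 (threonine) and RARS2 (arginine) had log2 ratios of −0.46, −0.43, −0.33 and −0.33 and stayed below 0 under all alternatives. IARS2 (isoleucine), HARS2 (histidine), YARS2 (tyrosine), VARS2 (valine) and CARS2 (cysteine) had log2 ratios of −0.13, 0.04, 0.07, 0.12 and 0.42. The sign of each of these 5 changed under at least 1 alternative. The deposited signal of CARS2, which had the highest ratio of all 33 enzymes, was 963.4 on the Me6TREN array and 1115 on the control array. WARS2, the mitochondrial tryptophan enzyme, had signals of 220.5 and 258.5 on the Me6TREN and the control array, below both detection limits, and no ratio is given for it.

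The log2 ratios of the cytosolic and mitochondrial enzymes overlapped, running from −1.03 to 0.41 and from −1.21 to 0.42. The difference of their medians, cytosolic minus mitochondrial, was 0.14 on the log2 scale. Under the alternatives it ran from 0.03 with the mean of a gene's probes to 0.50 with median centring and 0.51 with the authors' series matrix values. The compartments differed in where their probes lay on the intensity scale. The median of the mean log2 signal was 12.46 for cytosolic and 9.80 for mitochondrial probes, so that a scaling which acts on signal moves the 2 sets by different amounts. With median centring the cytosolic median turned to 0.0645, while the mitochondrial median was −0.43. At that setting 2 cytosolic enzymes were 1.5-fold lower and 3 higher, against 18.1% and 24.9% of all measured genes. With the series matrix values, for which the median of all measured genes was −0.43, the medians were −0.51 and −1.02. By these values 8 cytosolic and 10 mitochondrial enzymes were 1.5-fold lower, against 42.2% of all measured genes.

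A comparison with genes of like signal takes out such shifts. Relative to the median of the measured genes nearest in mean signal, the median log2 ratio was −0.19 for the cytosolic and −0.38 for the mitochondrial enzymes, and 6 and 4 of them were at least 1.5-fold lower, against 19% of all measured genes on the same scale. None was 1.5-fold higher on that scale, against 19.1% of all measured genes. GARS1 and AARS1 had the lowest places by this measure. Among the genes nearest to GARS1 in signal, 0.498% had a lower ratio, and among those nearest to AARS1 0.995%. For RARS1 the share was 3.98% and for WARS1 9.45%. Among the mitochondrial enzymes the lowest shares were 10.9% for PARS2 and 14.4% for AARS2, and at the other end 74.6% of the genes nearest to KARS1 had a lower ratio than KARS1.

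**Figure D3:**
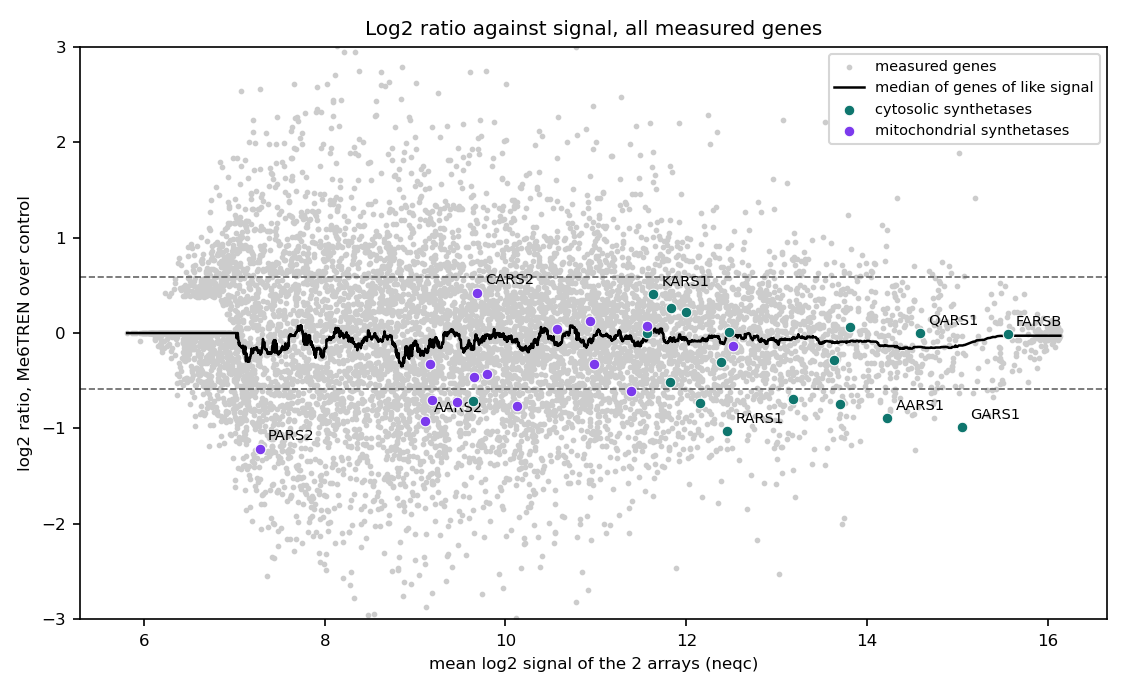
Log2 ratio, Me6TREN over control, against the mean log2 signal of both arrays for all 9410 measured genes (grey), with the cytosolic and mitochondrial synthetases in colour and the median of genes of like signal as a line; 54 genes lie beyond the plotted range of −3 to 3. The spread of the grey points narrows toward bright signals, where GARS1 and AARS1 lie at the lower edge; PARS2 is a bound.

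Enzymes for the same amino acid in the 2 compartments were set side by side in 15 pairs, in which EPRS1, the enzyme for both glutamate and proline, was set against EARS2 and PARS2, and FARS2 against both FARSA and FARSB. In 2 pairs both enzymes were at least 1.5-fold lower, AARS1 with AARS2 and FARSA with FARS2. In 5 pairs this held for the mitochondrial enzyme alone, in 3 for the cytosolic enzyme alone and in 5 for neither. LARS1 and LARS2 had log2 ratios of 0.01 and −0.72, whereas HARS1 and HARS2 had −0.73 and 0.04. HARS1 and HARS2 lie head to head on chromosome 5. Their promoter windows share 184 bases, with the RefSeq starts 85 bases apart on opposite strands, so these ratios belong to genes that start in the same stretch of DNA. The mitochondrial enzyme had the lower ratio in 9 of the 15 pairs, and in 8 to 12 under the alternatives.

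**Figure D4:**
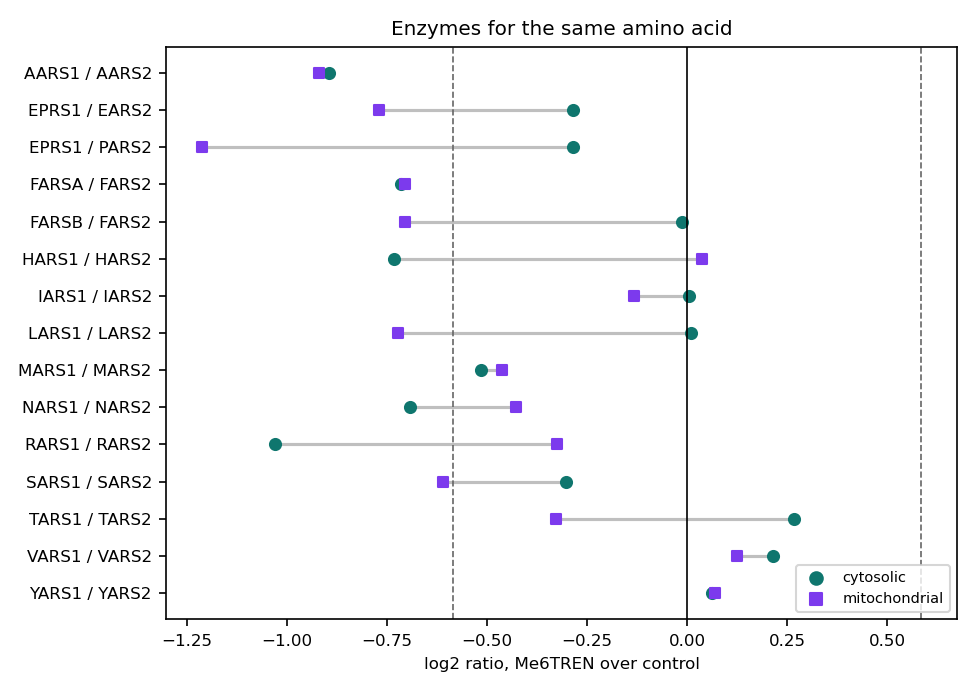
Log2 ratios, Me6TREN over control, of the cytosolic (circles) and mitochondrial (squares) synthetase for the same amino acid, with dashed lines at 1.5-fold. The members of a pair lie together for AARS1 and AARS2, FARSA and FARS2, and YARS1 and YARS2, and far apart for HARS1 and HARS2 and for LARS1 and LARS2.

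Mitochondria make some of their charged tRNAs with partner proteins. Genes of this kind were measured in a list of 5 that also holds PTCD1. GATB, GATC and QRSL1 form the enzyme that turns glutamate on the glutamine tRNA into glutamine, MTFMT adds a formyl group to the initiator methionine, and PTCD1 is a mitochondrial RNA-binding protein that binds leucine tRNAs. Of these 5, 3 (60%), PTCD1 among them, were at least 1.5-fold lower and none higher, against 21.9% and 16.5% of all measured genes. The median log2 ratio was −0.67. Relative to genes of like signal, 2 were at least 1.5-fold lower and 1 higher, against 19% and 19.1% of all measured genes. PTCD1 had signals of 1096 with Me6TREN and 4212 in the control (log2 ratio −1.57), and GATB had 1411 with Me6TREN and 3257 in the control (−0.74). QRSL1, detected on the control array alone with signals of 319.6 with Me6TREN and 475.0 in the control, was at least 1.59-fold lower (−0.67). It passed 1.5-fold in 4 of the 9 alternatives that gave it a value, and its log2 ratio was −0.27 without background correction. MTFMT had a log2 ratio of −0.57, while GATC, a subunit of the same enzyme as GATB, had 0.42, but −0.16 by the series matrix.

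The factors that use charged tRNAs at the ribosome were measured in both compartments. Of 12 measured mitochondrial translation factors, 4 (33.3%) were at least 1.5-fold lower and none higher, against 21.9% and 16.5% of all measured genes, with a median log2 ratio of −0.29. They were MTRFR and MRPL58, which release stalled chains (−1.13 and −0.71), TACO1, which aids the translation of a mitochondrial mRNA (−0.69), and the elongation factor GFM1 (−0.66). Of 11 measured cytosolic elongation and termination genes, 2 (18.2%) were at least 1.5-fold lower and none higher, against the same 21.9% and 16.5%, with a median of −0.06. EEF2K, the kinase that inhibits elongation factor 2, had signals of 610.0 with Me6TREN and 2832 in the control (log2 ratio −2.13), and ETF1, the release factor, had 3253 with Me6TREN and 9762 in the control (−1.22). ABCE1, a ribosome recycling factor, had −0.34 and EEF1D 0.42. EEF1A1, EEF1B2, EEF1G and EEF2 had deposited signals from 59851 to 71135 over both arrays, near the top of the scale, and log2 ratios from −0.06 to −0.03.

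The genes of the amino acid response and MYC, a known activator of translation genes, had a median log2 ratio of −0.14 over 10 genes. Of these, 3 were at least 1.5-fold lower (30%, against 21.9% of all measured genes) and 2 higher (20%, against 16.5%). ATF4 itself had a log2 ratio of −0.12, with signals of 56298 with Me6TREN and 55860 in the control. Its log2 ratio was above 0 with median centring (0.73), with the mean of detected probes (0.58) and with the series matrix values (0.16), so no direction is given for it. ATF5, a transcription factor related to ATF4, had −2.45, the stress-induced pseudokinase TRIB3 −0.85 and MYC −1.07. DDIT3, the transcription factor known as CHOP, had signals of 4757 with Me6TREN and 1879 in the control and a log2 ratio of 1.98, and EIF2AK4, the kinase that senses uncharged tRNA, had 0.88. The asparagine synthetase ASNS, the glutathione-degrading enzyme CHAC1, the leucine sensor SESN2 and the initiation factor subunit EIF2S1 had −0.53, 0.45, 0.15 and −0.16. ASNS turned to 0.24 with median centring, and CHAC1 and SESN2 to −0.14 and −0.46 with the series matrix values. The ratios of ATF5 and DDIT3 lay outside the range of the synthetases.

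**Figure D5:**
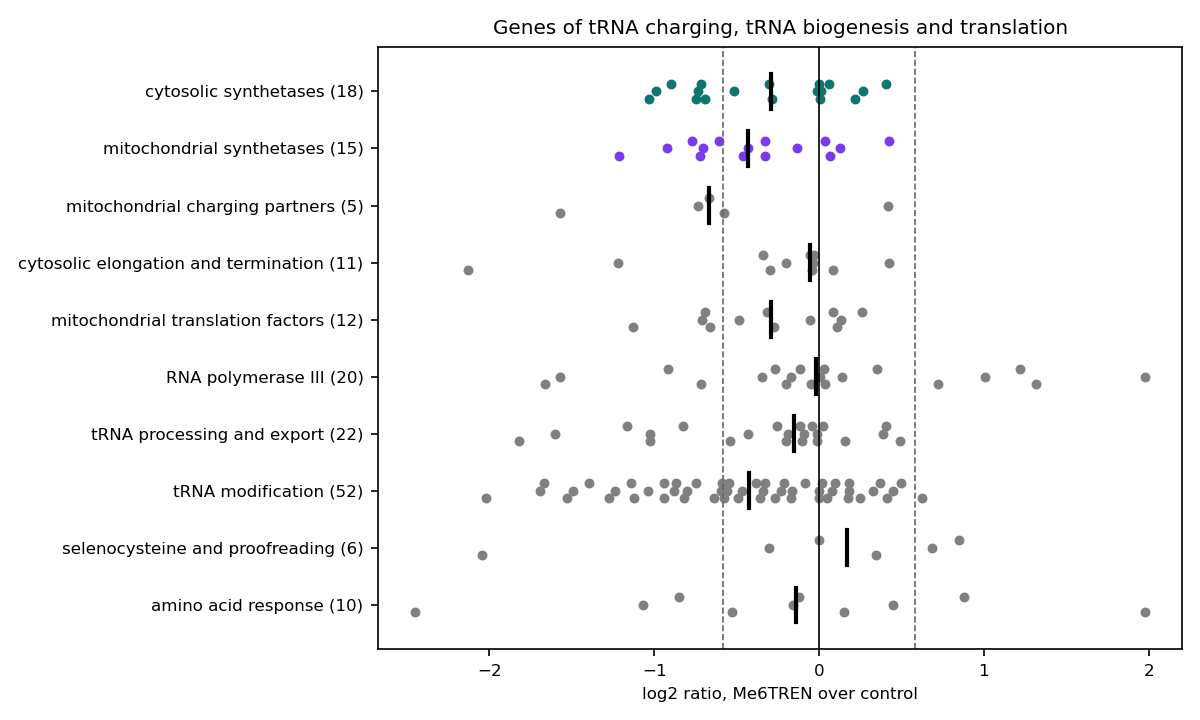
Log2 ratios, Me6TREN over control, of the measured genes of each list (points; number of genes in parentheses), with the list median as a bar and dashed lines at 1.5-fold. The cytosolic and mitochondrial synthetases run from −1.21 to 0.42, and none passes 1.5-fold on the higher side.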

How the data were processed

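Total RNA was measured on 1 array per group, with groups taken from the treatment label. The authors deposited the mean bead signal of each probe, an intensity not normalized between arrays, with its detection p-value (steps of 1 in 770) and bead number, per the file headers. A deposited series matrix holds linear intensities of the same arrays, each a linear function of the signal (slope 1.05 for Me6TREN and 0.951 for control) with a mean of 1297 and medians of 28.8 and 30.9. It is linear, not centred on genes and rises with the signal; its software is not given in the sources used here. An Ambion MessageAmp kit gave the biotin-labelled cRNA, per the labels' protocols.

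Signals were corrected with neqc of limma 3.58.1 (R 4.3.3; offset 16, quantile normalization, log2), tested on simulated data. Of 47322 probes, 30113 had 1 symbol in the platform annotation, 8 had several and the rest were unnamed; 30074 matched RefSeq by Entrez ID. A gene detected on 1 array has a bound against the higher of the other array's lowest detected signal and its own signal there, set to 0 where under 1-fold. The number of arrays limits the precision. With 1 array a group no test was possible, so genes are counted at 1.5-fold or 2-fold beside the share of all measured genes. All synthetases are named, and up to 4 genes of each other list with the largest ratios among those detected on both arrays, plus all amino acid response genes; POLR3D, BDP1, GTF3C4, MAF1, DTD2, QRSL1, EEF1A1, EEF1B2, EEF1G and EEF2 were named after their values were seen. The members and lists were chosen with earlier results of these data known. The 10 alternatives were no background correction, normexp with offset 50, neqc with offset 50, median centring, centring on the genes nearest in mean signal, series matrix values above a floor of 99.9, a detection threshold of 0.05, detection on both arrays, no detection filter, and the mean of detected probes.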

Additional observations from a re-analysis of the deposited data

How the results depend on the processing

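Under 10 alternatives the mitochondrial median log2 ratio stayed below 0 (−1.02 with the series matrix values to −0.33 with the mean of detected probes), and the cytosolic median did so except with median centring (0.0645). Median centring also gave 2 cytosolic enzymes 1.5-fold lower and 3 higher, against 7 and 0 in the main setting. Of all measured genes, 18.1% were lower and 24.9% higher with median centring. The mitochondrial count of 6 lower became 2 without background correction, against 14.4% of all measured genes, and 10 with the series matrix values, against 42.2%. The cause was not tested, apart from the array-wide shift of the series matrix values (median of all measured genes −0.43), relative to which the cytosolic and mitochondrial medians were −0.08 and −0.60. Of the genes past 2-fold, 40.4% were higher, against 53.8% under median centring and 10.9% by the series matrix. The RNA polymerase III median (−0.02) turned to 0.11 with median centring and 0.0175 relative to genes of like signal. With median centring the amino acid response median was 0.19 and that of cytosolic elongation 0.46. The selenocysteine and proofreading median of 0.17 turned to −0.30 with no detection filter and −0.0654 with the series matrix values, which also took mitochondrial translation factors to −0.90. Of 329 values of single enzymes under the alternatives, 13 moved by more than 1.5-fold, and no enzyme past 1.5-fold changed sign. No paired analysis was possible because each group has 1 array. Signal over background limits the ratios of dim probes such as PARS2.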

Other observations

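The enzymes that make, trim and modify tRNAs were measured as well. Of 52 measured tRNA modification genes, 21 (40.4%) were at least 1.5-fold lower with Me6TREN, against 21.9% of all measured genes, and 1 was higher, with a median log2 ratio of −0.42. NSUN2, a tRNA cytosine methyltransferase, had signals of 3585 with Me6TREN and 12492 in the control (log2 ratio −1.49). TRMT61B, a methyltransferase of mitochondrial tRNAs, had −2.02, the deaminase ADAT1 −1.69 and TP53RK, a kinase of the complex that modifies adenosine next to the anticodon, −1.67. Without background correction the log2 ratios of TRMT61B, ADAT1 and TP53RK were −1.14, −0.99 and −1.19. Of 22 measured genes of tRNA processing and export, 6 (27.3%) were lower and none higher, against 21.9% and 16.5% of all measured genes, with a median of −0.15. TRMT10C, a subunit of mitochondrial RNase P, had signals of 373.2 with Me6TREN and 956.0 in the control (−1.82), the RNase P subunit POP4 −1.60, the RNA kinase CLP1 −1.16 and the tRNA exporter XPOT −1.03. For TRMT10C, POP4, CLP1 and XPOT the log2 ratios without background correction were −1.02, −1.05, −0.80 and −0.82.

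Of 20 measured genes of RNA polymerase III, which transcribes tRNA genes, 4 (20%) were at least 1.5-fold lower and 5 (25%) higher, against 21.9% and 16.5% of all measured genes, with a median of −0.02. POLR3B, part of its catalytic core, had signals of 535.0 with Me6TREN and 1758 in the control (−1.66), GTF3C2 had −1.57 and BRF2 −0.92. The signal of BRF2 was 393.0 with Me6TREN, and its log2 ratio was −0.48 without background correction, short of 1.5-fold. CRCP, a subunit of the enzyme, had signals of 4558 with Me6TREN and 3258 in the control (1.01), but its log2 ratio was 0.026 with the mean of its detected probes. MAF1, the repressor of the enzyme, had 0.72. BDP1, POLR3D and GTF3C4 were detected on the Me6TREN array alone. BDP1 had deposited signals of 535.9 with Me6TREN and 304.4 in the control, POLR3D 432.7 with Me6TREN and 333.4 in the control, and GTF3C4 421.4 with Me6TREN and 300.4 in the control. The bounds of at least 3.95-fold, 2.49-fold and 2.33-fold higher hold for the background correction used here. Without it the log2 ratios were 0.91, 0.53 and 0.49, and that of GTF3C4 was 0.0957 with the mean of its detected probes. Among 6 genes of selenocysteine synthesis and proofreading, the kinase PSTK and the binding protein SECISBP2 had 0.85 and 0.69, DTD1 had 0.34, and DTD2, which removes wrongly attached amino acids, was at least 4.12-fold lower (log2 ratio −1.06 without background correction). SARS1, which also charges the selenocysteine tRNA, had −0.30.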
